A study of Homo sapiens with 24 samples.

Results

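The 10 chemokine genes described here are *CCL2*, *CCL20*, *CXCL1*, *CXCL2*, *CXCL3*, *CXCL5*, *CXCL8*, *CXCL12*, *CX3CL1* and *CXCL16*. They were chosen by name, out of 31205 named genes on the array, and were represented by 16 of 58201 probes. Of these genes, 9 were well above background throughout at least 1 PLC/PRF/5 group and 6 throughout at least 1 SNU-449 group. RNA was measured on 24 Agilent arrays with a single dye, 12 of PLC/PRF/5 cells and 12 of SNU-449 cells, both established human hepatocellular carcinoma (HCC) cell lines. Each line had 4 groups of 3 independent cultures, all starved of serum overnight: an untreated control, and cultures given, for 16 h, recombinant human TGFβ1 at 1 ng/mL (called TGFβ below), galunisertib at 10 µM, a small molecule inhibitor of the type I TGFβ receptor kinase, or both agents together. Each line stands for 1 tumour grown without immune or stromal cells, and only RNA was measured, not secreted protein. Replicate 1, 2 or 3 of every group lay on slide 1, 2 or 3, and each group took the same position on each slide, so a position effect and the treatment cannot be told apart.

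Chemokines are small secreted proteins that attract leukocytes along a concentration gradient by binding receptors coupled to G proteins. CCL2 attracts monocytes through CCR2, and CCL20 attracts cells that carry CCR6. CXCL1, CXCL2, CXCL3, CXCL5 and CXCL8 bind CXCR2, CXCL8 also binds CXCR1, and they attract neutrophils. CXCL12 is the ligand of CXCR4 and ACKR3. CX3CL1 and CXCL16 are made as membrane proteins, are released by the sheddases ADAM10 and ADAM17, and bind CX3CR1 and CXCR6. Transcription of several of these genes is induced by NF-κB, a factor that binds κB sites in their promoters.

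The genes for CXCL1, CXCL2, CXCL3, CXCL5 and CXCL8 lie on chromosome 4, and the windows upstream of 4 of them hold the same κB site. Windows of 300 bases, from 250 bases before to 50 bases after the transcription start in RefSeq on GRCh38.p14, were found for 7 of the 10 genes, and *CCL2*, *CX3CL1* and *CXCL16* had no entry. The classical κB consensus was searched on both strands and matched in 5 of these 7 windows, against 5.91% of 35116 windows of the same length. The match began 79 bases before the start in *CXCL1*, *CXCL3* and *CCL20*, 78 before it in *CXCL2* and 91 before it in *CXCL5*. The 80 bases around it are shown because these are the genes whose values are compared most closely below, with the bases of the κB match in capitals.
CCL20, chr2:227813723-227813802, forward strand: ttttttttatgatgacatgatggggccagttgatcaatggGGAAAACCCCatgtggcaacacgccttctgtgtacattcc
CXCL1, chr4:73869274-73869353, forward strand: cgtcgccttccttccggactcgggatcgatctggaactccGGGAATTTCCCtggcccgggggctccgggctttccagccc
CXCL2, chr4:74099234-74099313, reverse strand: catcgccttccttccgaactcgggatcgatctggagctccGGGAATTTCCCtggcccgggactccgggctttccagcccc
CXCL3, chr4:74038729-74038808, reverse strand: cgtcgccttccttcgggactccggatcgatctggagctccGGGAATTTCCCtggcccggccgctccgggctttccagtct
CXCL5, chr4:73998729-73998808, reverse strand: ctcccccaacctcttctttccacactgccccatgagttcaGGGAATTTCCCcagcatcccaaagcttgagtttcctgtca
In the 4 genes of chromosome 4 the match is an inverted repeat that fits the consensus on both strands, 1 base apart. Aligned at the match without gaps, the stretch of *CXCL1* was identical to that of *CXCL3* at 91.2% of the 80 positions and to that of *CXCL2* at 82.5%, but to that of *CXCL5* at 45% and to that of *CCL20* at 32.5%. The AP-1 motif TGANTCA matched in the *CXCL8* window only, 137 bases before the start and on both strands, and in 7.71% of all windows. The *CXCL8* window also holds tggaatttcc, which differs from the κB consensus only in its first base and was not counted as a match. The SMAD-binding motif CAGAC, searched on both strands and overlapping with neither of the others, matched in the windows of *CXCL2*, *CXCL5* and *CXCL12*, 3 of 7, and in 45.3% of all windows. Such a match shows that the letters are there and not that a factor binds. *CXCL1*, *CXCL2* and *CXCL3* are also near copies of each other in their transcripts, and the probe sequences were not used here, so it was not tested whether a probe of one binds RNA of another.

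Levels are given as log2 of the processed intensity over the 75th percentile of its array, so 0 is the brightness at that percentile, and levels of different probes are not compared. Values below 5.70% of that percentile were set to it, a floor at a log2 of -4.13. A gene is said to rise or fall when its Benjamini-Hochberg adjusted p in limma was below 0.05 over all genes tested, and each comparison within a line rests on its 12 arrays. SE is the standard error of the limma fit, and every adjusted p is from limma. In bulk RNA, fewer cells that express a gene and less RNA per cell cannot be told apart. Precision is limited by having 3 arrays in each group. The 75th percentile was 145 to 262 intensity units over the 24 arrays, and 41.6% to 49.6% of probes were well above background. All 8 hepatocyte markers were well above background on all 12 PLC/PRF/5 arrays and 5 of 8 on all 12 SNU-449 arrays, on none of which *APOB* and *TF* were. Among 3 TGFβ-responsive genes used to check the treatments, *SMAD7* rose with TGFβ in both lines (log2 differences of 0.80 and 0.65, PLC/PRF/5 first) and fell when galunisertib was added to TGFβ (-1.54 and -1.16). *PMEPA1* rose with TGFβ by 1.39 in SNU-449 and by at least 4.34-fold in PLC/PRF/5, where *SKIL* rose by 1.63. In SNU-449 *SKIL* had a difference of 0.93 that did not pass (adjusted p = 0.084). With TGFβ added to galunisertib, all 3 rose in SNU-449. *SMAD7* rose by 1.38 (adjusted p = 0.0014), *PMEPA1* by 2.77 (adjusted p = 0.0063) and *SKIL* by 2.08 (adjusted p = 0.0095). In PLC/PRF/5 0 of 3 passed in that comparison, with 1 at an unadjusted p below 0.05 in limma. These rises in SNU-449 started from levels lowered by galunisertib. Galunisertib alone changed *SMAD7* there by -1.90, *PMEPA1* by -3.50 and *SKIL* by -2.62, and all 3 passed. Added to TGFβ in SNU-449, it changed *PMEPA1* by -2.12 and *SKIL* by -1.48, and both passed. So in SNU-449 galunisertib lowered these genes with and without TGFβ, and they still rose when TGFβ was added to it.

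**Figure D1:**
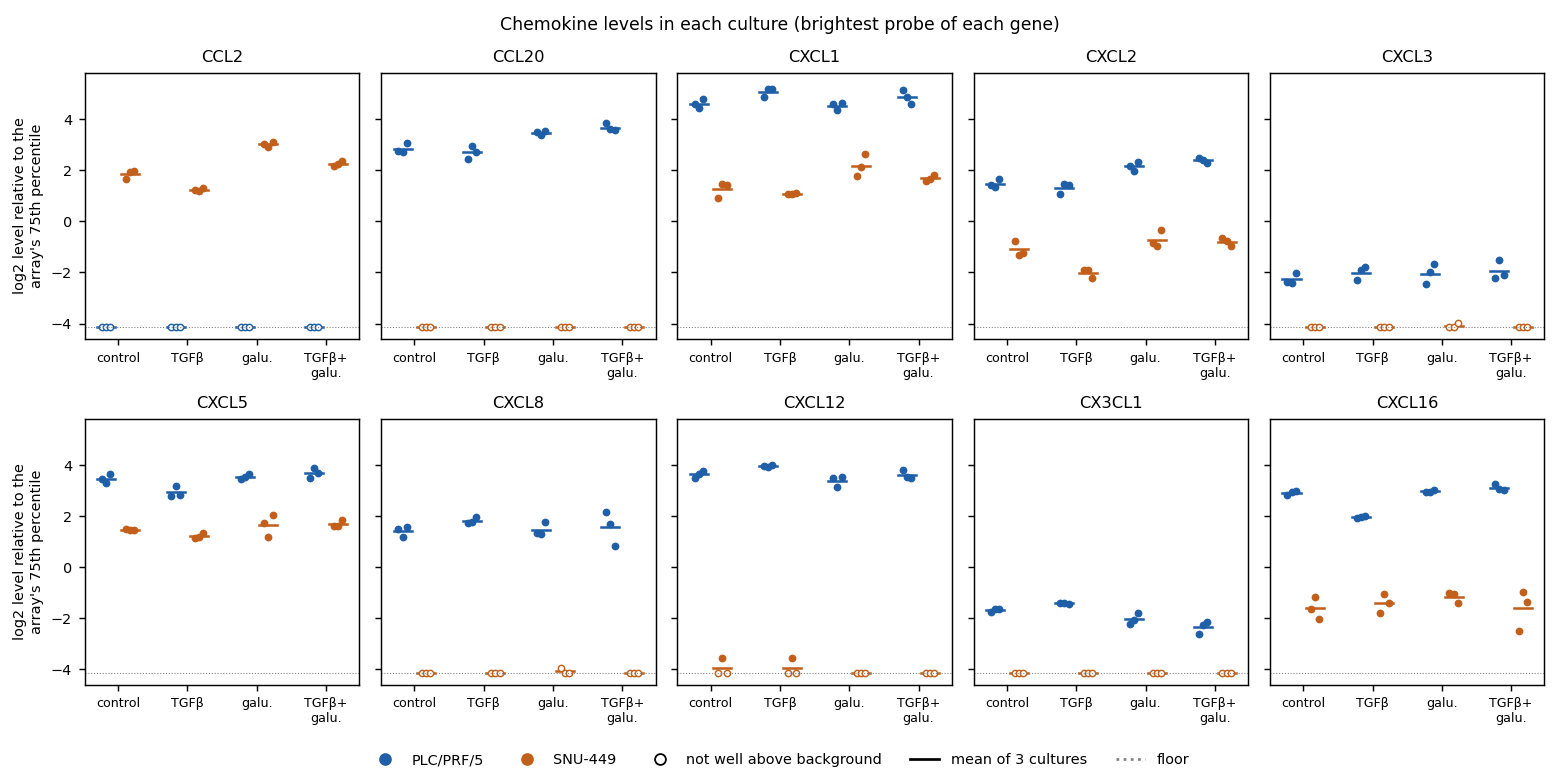
Log2 level of each chemokine relative to the 75th percentile of its array (y axis) in the 4 treatment groups (x axis, galu. for galunisertib) of PLC/PRF/5 (blue) and SNU-449 (orange), for the brightest probe of each gene. Each point is 1 culture, short lines are means of 3 cultures, open points were not well above background, and the dotted line is the floor. *CCL2* sits at the floor on all 12 PLC/PRF/5 arrays and between 1.19 and 3.12 in SNU-449, while *CCL20*, *CX3CL1*, *CXCL3* and *CXCL8* are well above background in PLC/PRF/5 and not in SNU-449.

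The lines differed in which chemokines they expressed before any treatment. Of the 10 genes, 9 were higher in PLC/PRF/5 control cells and 1, *CCL2*, in SNU-449 control cells, where 34% of 17854 genes were higher in PLC/PRF/5 and 34.6% in SNU-449. Of these 10 genes, 5 were well above background in the control cells of 1 line only and so had to differ, and their count supports nothing. The median log2 difference of the 10 genes, PLC/PRF/5 minus SNU-449, was 2.95, beside 0.06 over all genes. It includes the 5 genes that had to differ, so it supports nothing either. *CCL2*, the monocyte attractant, was read by 10 spots per array. It was not well above background in any PLC/PRF/5 culture and stood at 1.68, 1.95 and 1.97 in the SNU-449 controls, at least 54.9-fold higher. *CCL20* showed the opposite, with 2.74, 2.71 and 3.06 in the PLC/PRF/5 controls and no SNU-449 culture well above background, at least 119-fold higher in PLC/PRF/5. By the same bound, *CXCL8* was at least 44.7-fold, *CX3CL1* at least 5.25-fold and *CXCL3* at least 3.46-fold higher in PLC/PRF/5.

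The other chemokines were read in both lines. *CXCL1*, a neutrophil attractant, was at 4.58, 4.46 and 4.80 in the PLC/PRF/5 controls and at 0.93, 1.45 and 1.44 in the SNU-449 controls, a log2 difference of 3.34 (SE 0.19, adjusted p = 5.0e-12). *CXCL2* differed by 2.57 (SE 0.17, adjusted p = 6.5e-11) and *CXCL5* by 2.00 (SE 0.16, adjusted p = 1.1e-09), both higher in PLC/PRF/5. *CXCL16*, which exists as a membrane-bound and a shed form, was at 2.81, 2.94 and 2.97 against -1.62, -1.17 and -2.01, a difference of 4.51 (SE 0.28, adjusted p = 1.8e-11). The control cultures of the lines did not overlap for any of these 4 genes. *CXCL12* stood at 3.48, 3.66 and 3.76 in the PLC/PRF/5 controls, while its brightest probe was well above background in 1 of 3 SNU-449 controls, so the fitted difference of 7.57 depends on the floor. A second *CXCL12* probe, A_33_P3712341, was well above background in all 3 SNU-449 controls, at -3.17, -2.98 and -3.22, against 2.23, 2.29 and 2.01 in PLC/PRF/5. It is annotated to another transcript of the gene than the brightest probe. Probes A_24_P412156 and A_33_P3372840 were not well above background in any SNU-449 culture.

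In SNU-449, *CCL2* was lower with TGFβ and higher with galunisertib, in all 4 comparisons. The 3 TGFβ cultures were at 1.23, 1.19 and 1.30, all below the controls given above. The 3 galunisertib cultures were at 3.04, 2.91 and 3.12, and the 3 cultures with both agents at 2.15, 2.23 and 2.35. None of the 4 groups overlapped with another, and their order from low to high was TGFβ, control, TGFβ with galunisertib, and galunisertib. Their means were 1.24 ± 0.06, 1.87 ± 0.16, 2.25 ± 0.10 and 3.02 ± 0.10 (SD, n = 3 each). The difference with TGFβ was -0.62 (SE 0.10, adjusted p = 0.0034), or 1.54-fold lower. Galunisertib raised it by 1.16 (SE 0.10, adjusted p = 0.00034), or 2.23-fold. Added to TGFβ, galunisertib raised it by 1.00 (SE 0.10, adjusted p = 0.00011), and TGFβ added to galunisertib changed it by -0.78 (SE 0.10, adjusted p = 0.0060). Comparisons that use the same group of arrays are not independent of each other. With each array scaled to its median, the difference with TGFβ was -0.53 and that of TGFβ added to galunisertib -0.90, and neither passed (adjusted p = 0.21 and 0.083), nor did they without scaling (0.12 and 0.10). By the methods' t-test the change with galunisertib alone had an adjusted p of 0.060 and that of TGFβ added to galunisertib 0.18.

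*CXCL2* fell with TGFβ in SNU-449 and rose when galunisertib was added to TGFβ. Its levels were -0.76, -1.31 and -1.24 in the controls, -1.89, -1.91 and -2.22 with TGFβ, -0.84, -0.98 and -0.35 with galunisertib and -0.66, -0.76 and -0.98 with both. The TGFβ cultures lay below all 9 other SNU-449 cultures, and the other 3 groups overlapped. The difference with TGFβ was -0.91 (SE 0.19, adjusted p = 0.014). It no longer passed without control replicate 1 or TGFβ replicate 3 (adjusted p = 0.051 and 0.066). Galunisertib added to TGFβ changed *CXCL2* by 1.21 (SE 0.19, adjusted p = 0.0019), whereas galunisertib alone gave 0.38, which did not pass (adjusted p = 0.26).

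*CXCL1* rose with galunisertib alone. The galunisertib cultures were at 1.76, 2.11 and 2.66, above all 3 controls, and differed by 0.90 (SE 0.21, adjusted p = 0.031). That call was lost when any 1 control culture or galunisertib replicate 3 was left out (adjusted p = 0.053 to 0.10). Over all 23 alternatives, these 4 included, it was lost in 10. The TGFβ cultures, at 1.08, 1.06 and 1.12, overlapped with the controls, and those with both agents were at 1.57, 1.67 and 1.82. Added to TGFβ, galunisertib gave a difference of 0.60 that did not pass (adjusted p = 0.082) and did pass with the slide as a block (adjusted p = 0.039), in a comparison where samples of one number deviated together. *CXCL5*, another ligand of CXCR2, had a difference of -0.24 with TGFβ and 0.46 with galunisertib added to TGFβ, and neither passed. In a fit over all 24 arrays the latter did (adjusted p = 0.048), as did that of *CXCL1*. *CXCL16* lay at -2.51 to -0.96 over the 12 SNU-449 cultures and *CXCL12*, by probe A_33_P3712341, at -3.49 to -2.06, with no difference past the threshold. *CCL20*, *CXCL3*, *CXCL8* and *CX3CL1* stayed near background throughout SNU-449 and were not tested.

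Counted over the chemokines tested in SNU-449, 2 of 6 fell and 0 rose with TGFβ, where 4.7% of 16072 genes fell and 5.64% rose, and their median log2 difference was -0.21 beside 0.02 over all genes. With limma at an unadjusted p below 0.05 also 2 fell and 0 rose, and the methods' t-test, adjusted, passed 1. With galunisertib 2 of 6 rose, where 5.24% of genes rose and 2.04% fell (medians of 0.41 and 0.09). With galunisertib added to TGFβ, 2 of 6 rose, where 9.6% rose and 7.34% fell (medians of 0.53 and 0.01). With TGFβ added to galunisertib, 1 of 6 fell, where 0.958% fell and 0.896% rose (medians of -0.27 and -0.05).

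Among markers of leukocytes, *CD14*, the monocyte receptor for lipopolysaccharide, also rose with galunisertib added to TGFβ in SNU-449, by 1.04 (SE 0.16, adjusted p = 0.0015), from -3.08, -3.23 and -3.46 to -2.49, -2.15 and -2.03. Of the 3 leukocyte markers reported, *CD14* was well above background in all 12 SNU-449 cultures, *PTPRC*, which marks all leukocytes, in 11, and the T-cell marker *CD3E* in none. Their summed level was 0.254 to 0.358 times the 75th percentile with TGFβ and 0.336 to 0.481 with both agents, and its part in the change of *CCL2* and *CXCL2* was not tested.

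In PLC/PRF/5, *CXCL16* and *CXCL5* fell with TGFβ. *CXCL16* was at 2.81, 2.94 and 2.97 in the controls and at 1.91, 1.98 and 1.99 with TGFβ. With galunisertib it was at 2.94, 2.94 and 3.02 and with both agents at 3.26, 3.04 and 3.04. The 3 TGFβ cultures lay apart from and below the other 9, which ranged from 2.81 to 3.26, with means of 2.91 ± 0.08 in the controls and 1.96 ± 0.04 with TGFβ (SD, n = 3 each). The difference with TGFβ was -0.95 (SE 0.08, adjusted p = 5.1e-05), or 1.93-fold lower, and that of galunisertib added to TGFβ was 1.15 (SE 0.08, adjusted p = 4.8e-06), or 2.22-fold higher. Galunisertib alone gave 0.06, which did not pass (adjusted p = 0.69). Without scaling between arrays, the fall with TGFβ was -0.69 and did not pass (adjusted p = 0.15).

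*CXCL5*, a neutrophil attractant, followed the same order. It was at 3.45, 3.30 and 3.65 in the controls, 2.80, 3.17 and 2.84 with TGFβ, 3.44, 3.54 and 3.66 with galunisertib and 3.48, 3.89 and 3.68 with both. All 3 TGFβ cultures were below the other 9. The difference with TGFβ was -0.53 (SE 0.14, adjusted p = 0.028), a call that was lost without control replicate 1 or 3 or TGFβ replicate 1 or 3 (adjusted p = 0.064 to 0.11). Over all 23 alternatives, these 4 included, the call was lost in 9, with differences of -0.65 to -0.28. Galunisertib added to TGFβ raised it by 0.75 (SE 0.14, adjusted p = 0.0017). The endothelial marker *CDH5* also fell by 0.90 with TGFβ in PLC/PRF/5 (adjusted p = 0.023), where it was well above background in 2 of 3 TGFβ cultures. Of the 2 endothelial markers tested, *CDH5* passed and *VWF* did not, beside 7.21% of all genes that fell. Of the 3 endothelial markers, *VWF* was well above background on all 12 PLC/PRF/5 arrays and *PECAM1* on none, their summed level was 0.329 to 0.397 times the 75th percentile in the controls and 0.242 to 0.311 with TGFβ, and its part in these changes was not tested.

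*CCL20* and *CXCL2* rose with galunisertib in PLC/PRF/5, with or without TGFβ. *CCL20*, which attracts cells carrying CCR6, was at 2.74, 2.71 and 3.06 in the controls and 2.44, 2.94 and 2.72 with TGFβ. It was at 3.49, 3.39 and 3.54 with galunisertib and 3.85, 3.60 and 3.57 with both agents. All 6 cultures with galunisertib were above all 6 without. Galunisertib alone changed it by 0.64 (SE 0.14, adjusted p = 0.030), and galunisertib added to TGFβ by 0.97 (SE 0.14, adjusted p = 0.00043). *CXCL2* was at 1.42, 1.33 and 1.66 in the controls, 1.08, 1.46 and 1.42 with TGFβ, 2.18, 1.98 and 2.34 with galunisertib and 2.48, 2.41 and 2.27 with both, again with no overlap between cultures with and without galunisertib. Its differences were 0.70 (SE 0.13, adjusted p = 0.017) for galunisertib alone and 1.07 (SE 0.13, adjusted p = 0.00019) for galunisertib added to TGFβ. Both calls for galunisertib alone were lost without control replicate 1 or 2 or galunisertib replicate 1 or 3, with an adjusted p of 0.085 to 0.10 for *CCL20* and 0.055 to 0.072 for *CXCL2*, and with each array scaled to its median (adjusted p = 0.15 and 0.11). Over all 23 alternatives, these included, the call for galunisertib alone was lost in 10 for *CCL20* and in 8 for *CXCL2*. TGFβ alone gave -0.13 for *CCL20* and -0.15 for *CXCL2*, and neither passed.

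*CX3CL1* and *CXCL12* went the other way. *CX3CL1*, a chemokine anchored in the membrane by a mucin-like stalk, was at -1.76, -1.62 and -1.62 in the controls and -1.41, -1.41 and -1.43 with TGFβ. It was at -2.24, -2.06 and -1.81 with galunisertib and -2.60, -2.25 and -2.14 with both, so that all 6 cultures with galunisertib were below all 6 without. Galunisertib added to TGFβ changed it by -0.91 (SE 0.13, adjusted p = 0.00041). Galunisertib alone gave -0.37 and TGFβ alone 0.25, neither past the threshold (adjusted p = 0.12 and 0.25). *CXCL12* was at 3.96, 3.94 and 4.02 with TGFβ and 3.82, 3.53 and 3.48 with both agents, a difference of -0.36 (SE 0.13, adjusted p = 0.043). That call was lost without any 1 of the 3 TGFβ cultures or without replicate 2 or 3 of the cultures with both agents (adjusted p = 0.080 to 0.13), and with each array scaled to its median the difference was -0.18.

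Hepatocyte markers changed in the same PLC/PRF/5 comparisons. With TGFβ, *ALB* (albumin) fell by 0.94, *APOB* fell by 0.66 and *AFP* (alpha-fetoprotein) fell by 0.49, beside 7.21% of all genes. With galunisertib added to TGFβ these 3 of 8 rose, by 0.49, 0.76 and 0.54, beside 25.9% of all genes. With galunisertib alone *ALB* fell by 0.97 and *TTR* (transthyretin) fell by 0.69, 2 of 8 beside 1.74%. With TGFβ added to galunisertib, *TTR* rose by 0.70 and *FGB* rose by 0.59, 2 of 8 beside 3.58%. The summed level of the 8 markers was 486 to 753 times the 75th percentile in the controls, 523 to 663 with TGFβ, 492 to 520 with galunisertib and 488 to 548 with both, and its part in the chemokine changes was not tested.

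*CXCL1*, *CXCL3* and *CXCL8* passed the threshold in no comparison within PLC/PRF/5. *CXCL1* was at 4.58, 4.46 and 4.80 in the controls and at 4.88, 5.19 and 5.17 with TGFβ, which did not overlap, and the difference of 0.46 had an adjusted p of 0.072. *CXCL12* was at 3.48, 3.66 and 3.76 in the controls and at 3.96, 3.94 and 4.02 with TGFβ, a difference of 0.34 that did not pass either (adjusted p = 0.11). After quantile normalization both passed, at 0.50 (adjusted p = 0.025) for *CXCL1* and 0.38 (adjusted p = 0.035) for *CXCL12*, which took the count with TGFβ from 2 to 4. *CXCL8* was at 2.17, 1.71 and 0.85 with both agents, a wider spread than the 1.18 to 1.98 of the other 9 cultures. *CXCL3* lay at -2.47 to -1.50 over all 12. *CCL2* was at the floor in all 12 and was not tested.

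Counted over the 9 chemokines tested in PLC/PRF/5, 2 fell and 0 rose with TGFβ, where 7.21% of 16664 genes fell and 6.34% rose, and the median log2 difference was 0.25 beside -0.03 over all genes. With limma at an unadjusted p below 0.05, 2 fell and 2 rose, and the methods' t-test, adjusted, passed 1. With galunisertib 2 rose, where 3.66% of genes rose and 1.74% fell (medians of 0.06 and 0.05). With galunisertib added to TGFβ 4 rose and 2 fell, where 25.9% rose and 13.3% fell (medians of 0.07 and 0.06). With TGFβ added to galunisertib 0 of 9 passed with limma, where 3.58% of genes rose and 4.93% fell, while 2 had an unadjusted p below 0.05 and the methods' t-test passed 0 with and without adjustment. Those 2 were *CXCL1* at 0.35 and *CX3CL1* at -0.30.

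**Figure D2:**
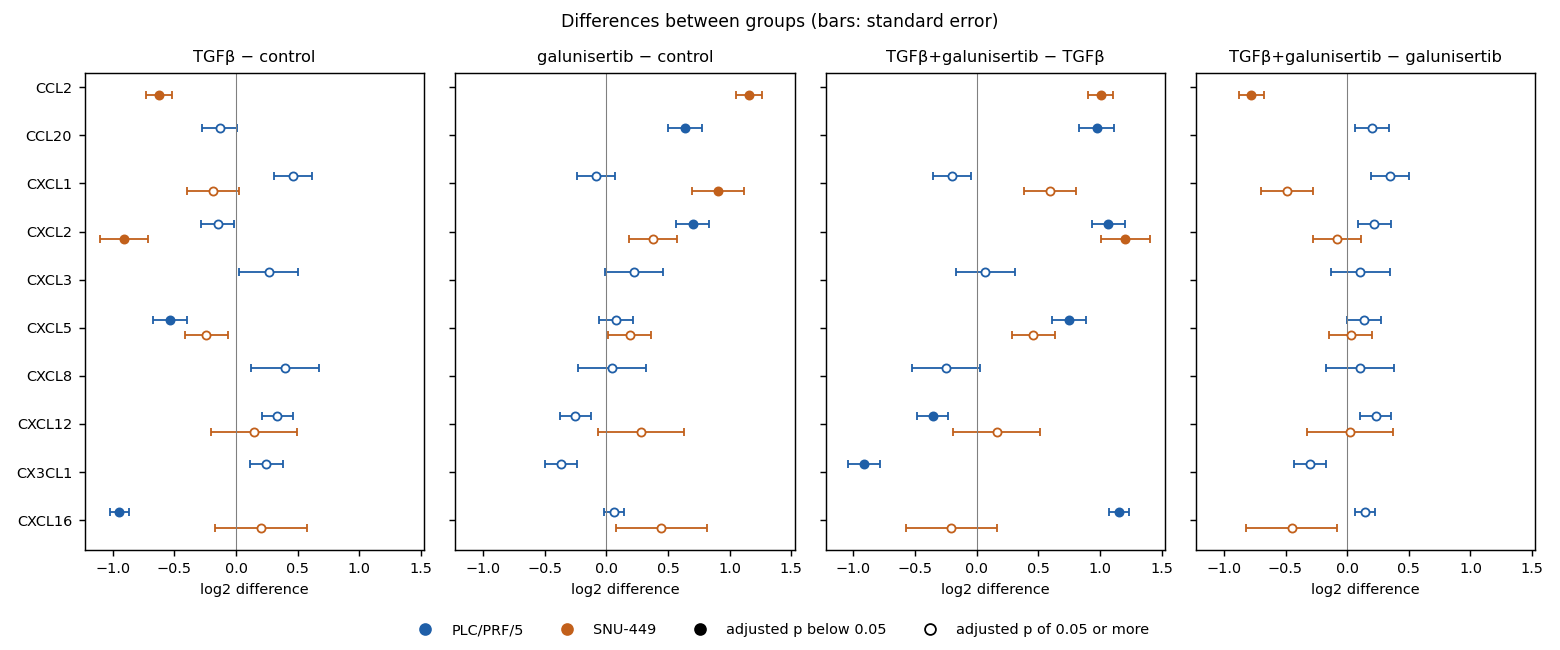
Log2 difference (x axis) of each chemokine (y axis) in the 4 comparisons within a line, for PLC/PRF/5 (blue) and SNU-449 (orange). Bars are standard errors from limma, filled points passed an adjusted p of 0.05 and open points did not, genes not tested in a line have no point, and *CXCL12* is read by a different probe in each line. *CCL2* is filled in all 4 panels for SNU-449, while PLC/PRF/5 has 6 filled points in the comparison of both agents with TGFβ and none in that of both agents with galunisertib.

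The effects of galunisertib and of TGFβ were compared between the lines over all 24 arrays. Of the 10 genes, 3 differed in their response to galunisertib, 2 with a higher value in SNU-449, where 3.44% of 17854 genes had a higher and 2.45% a lower effect in SNU-449. *CCL2* and *CCL20* are 2 of the 3, and each sat at the floor in 1 line, so that a difference in effect was not measured for them. *CXCL1* was read in both lines and differed by 0.99 (SE 0.27, adjusted p = 0.035), from -0.09 in PLC/PRF/5 to 0.90 in SNU-449. That difference did not pass when control replicate 1 of SNU-449, galunisertib replicate 3 of SNU-449, or any 1 of control replicates 1 and 3 and galunisertib replicates 1 and 2 of PLC/PRF/5 was left out (adjusted p = 0.056 to 0.098). For TGFβ, *CCL2* alone passed, where 4.33% of genes had a lower and 4.3% a higher effect in SNU-449, and it was at the floor in PLC/PRF/5. The fall of *CXCL16* in PLC/PRF/5 and its 0.20 in SNU-449 differed by 1.15 (SE 0.39, adjusted p = 0.083), and the effects of TGFβ on *CXCL2* differed by -0.76 (SE 0.24, adjusted p = 0.060), so neither was shown to differ between the lines. The difference for *CXCL16* passed after normexp background correction, at 0.92 (adjusted p = 0.013), and that for *CXCL2* with the percentile over only those probes that every array detected, at -0.84 (adjusted p = 0.030).

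For 4 genes, *CXCL1*, *CXCL2*, *CXCL12* and *CXCL16*, the array had more than 1 probe, and the probes did not always give the same answer. For *CXCL16* in PLC/PRF/5 they did: probe A_33_P3351249 fell by 0.83 with TGFβ and rose by 1.06 with galunisertib added, with adjusted p over all probes of 0.0011 and 7.4e-05, and the probes had a Pearson r of 0.98 over the 12 arrays. In SNU-449 they had an r of -0.01, and A_33_P3351249 rose by 0.52 with galunisertib added to TGFβ (adjusted p over all probes = 0.043), against -0.21 by the brightest probe. The probes of *CXCL2* disagreed in both lines. Probe A_24_P257416 gave -0.02 with galunisertib added to TGFβ in PLC/PRF/5, from 1.05, 1.23 and 1.21 to 1.38, 1.15 and 0.90, where the brightest probe gave 1.07. In SNU-449 it gave 0.21 against 1.21 in the same comparison, and -0.56 with TGFβ (adjusted p over all probes = 0.14).

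The *CXCL2* probes had an r of 0.39 with each other in PLC/PRF/5 and 0.50 in SNU-449. In SNU-449, A_24_P257416 followed the second *CXCL1* probe, A_33_P3330264, with an r of 0.92. The *CXCL1* probes had an r of 0.74 in PLC/PRF/5 and 0.69 in SNU-449, and A_33_P3330264 gave 0.59 with galunisertib in SNU-449, which did not pass (adjusted p over all probes = 0.14). It fell by 0.49 when galunisertib was added to TGFβ in PLC/PRF/5 (adjusted p over all probes = 0.040), where the brightest probe gave -0.20. So the rises of *CXCL2* in both lines and of *CXCL1* in SNU-449 rest on 1 probe each. Of the 4 *CXCL12* probes, all were lower with both agents than with TGFβ in PLC/PRF/5, with differences of -0.36, -0.69, -0.25 and -0.29, and 1, A_33_P3712341, passed over all probes (adjusted p = 0.0010). These probes are annotated to different transcripts. In PLC/PRF/5, A_33_P3712341 had an r of 0.40 with the brightest probe and 0.16 with A_24_P412156. With A_33_P3372840, annotated to the same transcript, its r was 0.68.

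**Figure D3:**
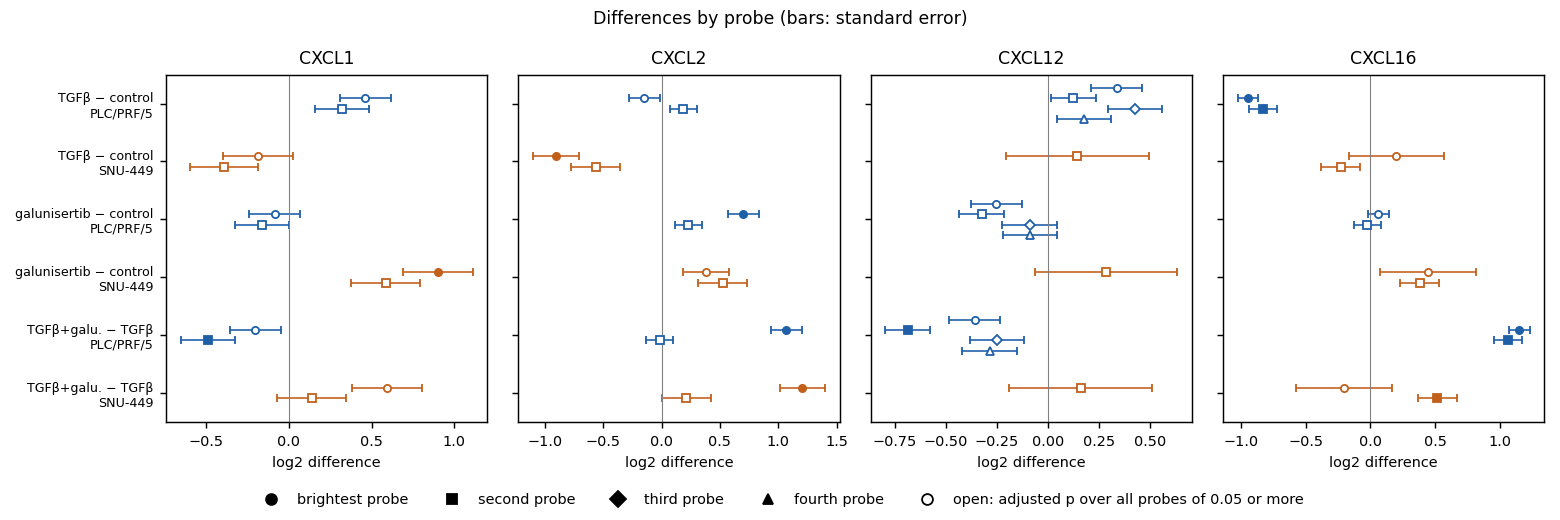
Log2 difference (x axis) by each probe of the 4 chemokines with more than 1, in 3 comparisons of each line (y axis, galu. for galunisertib), for PLC/PRF/5 (blue) and SNU-449 (orange). Bars are standard errors from limma, and filled points passed an adjusted p of 0.05 over all probes. The probes of *CXCL16* lie together in PLC/PRF/5, while those of *CXCL2* part where galunisertib was added to TGFβ.

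Over the 12 arrays of a line the chemokines did not vary as 1 block. Each correlation below is a description over 12 arrays of 4 treatment groups, which share slides and scaling. It uses the brightest probe of each gene unless stated. In PLC/PRF/5, *CCL20* and the brightest probe of *CXCL2* varied together (r = 0.99), and *CX3CL1* varied against both (r = -0.89 and -0.87). The second *CXCL2* probe had an r of 0.39 with the brightest there, so these values rest on 1 probe of *CXCL2*. *CXCL5* went with *CXCL16* (r = 0.86), and *CXCL1* with *CXCL8* (r = 0.79) and *CXCL12* (r = 0.84). *CXCL1* and *CXCL2*, whose promoter stretches are 82.5% identical, had an r that depended on the probe, from -0.52 to 0.48 over the 4 pairs of probes there and from 0.52 to 0.92 in SNU-449. In SNU-449, *CCL2* varied with *CXCL1* (r = 0.90) and *CXCL2* (r = 0.79) and less with *CXCL16* (r = 0.22).

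**Figure D4:**
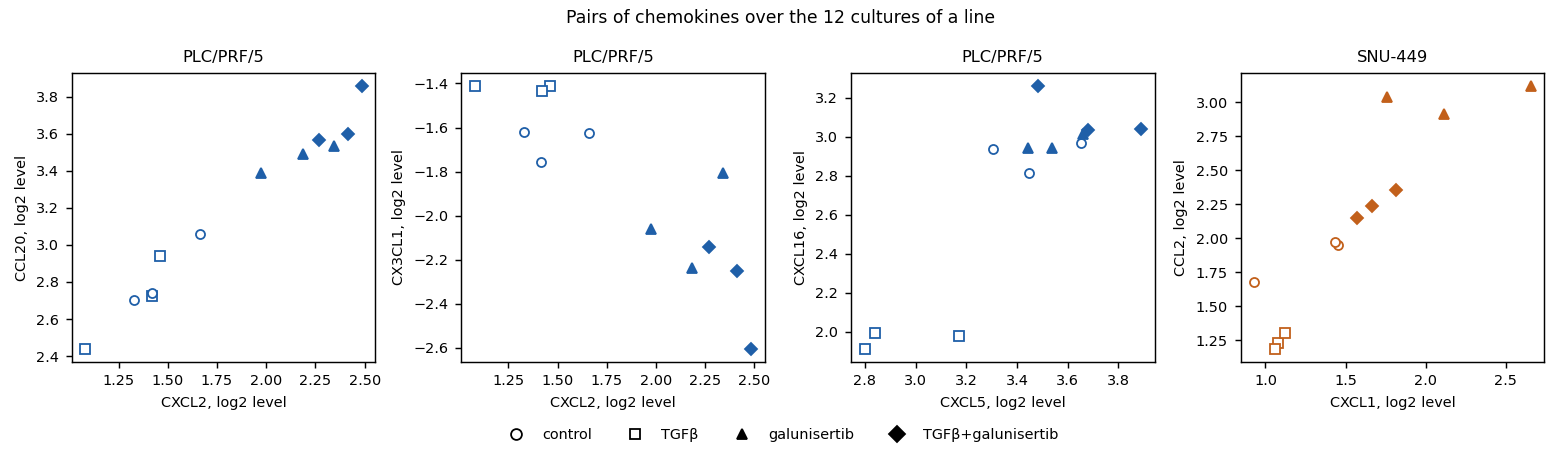
Log2 levels of pairs of chemokines, one on each axis, over the 12 cultures of PLC/PRF/5 (blue, 3 panels) or SNU-449 (orange), with a symbol for each treatment and filled symbols for cultures with galunisertib. Each gene is read by its brightest probe. *CCL20* and *CXCL2* lie along a line with filled and open symbols apart, *CX3CL1* falls as *CXCL2* rises, the 3 TGFβ cultures stand apart for *CXCL16*, and *CCL2* separates all 4 SNU-449 groups.

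Among the genes tested in a line (16664 in PLC/PRF/5 and 16072 in SNU-449), those most like each chemokine over its 12 arrays were found by Pearson r. For *CCL2* in SNU-449 they were *IFIT2* (r = 0.997), an interferon-induced gene, and *SOWAHD* (r = 0.995). For *CXCL16* in PLC/PRF/5 they were *PTGER4* (r = 0.996), a prostaglandin E2 receptor, and *CRH* (r = 0.994), corticotropin-releasing hormone. For *CCL20* in PLC/PRF/5 they were *SLC35F2* (r = 0.987) and *CXCL2* (r = 0.987), and for *CXCL2* *TSPAN14* (r = 0.989), a tetraspanin, and *CCL20*. In both, *CXCL2* was read by its brightest probe alone. For *CXCL5* in PLC/PRF/5 they were *CPAP* (r = 0.962) and *FKBP5* (r = 0.960), a glucocorticoid-induced immunophilin.

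The receptors of most of these chemokines were not well above background. Of 23 chemokine receptors on the array, 15 were well above background on no array of PLC/PRF/5, among them CCR2, CXCR2, CXCR6, CX3CR1 and ACKR3, which bind ligands described here. In SNU-449 the same 5 and CXCR1 were among the 15 that were so on no array. Of the 7 receptors tested between the control cells, 4 were higher in PLC/PRF/5 and 2 in SNU-449, beside 34% and 34.6% of all genes. The receptor of CXCL12, *CXCR4*, was an exception and rose with galunisertib in both lines. In PLC/PRF/5 it was at 2.24, 2.28 and 2.53 in the controls, 2.08, 2.62 and 2.37 with TGFβ, 3.68, 3.56 and 3.72 with galunisertib and 3.82, 3.80 and 3.53 with both. In SNU-449 it was at -1.58, -1.37 and -1.37, -2.77, -2.76 and -2.44, -0.80, -0.94 and -0.54 and -1.29, -1.16 and -1.08 in the same order. All cultures with galunisertib were above all those without it in both lines, and SNU-449 cultures with TGFβ alone were the lowest. Galunisertib changed *CXCR4* by 1.30 (SE 0.14, adjusted p = 0.0013) in PLC/PRF/5 and by 0.68 (SE 0.13, adjusted p = 0.014) in SNU-449, and galunisertib added to TGFβ by 1.36 and 1.48. TGFβ changed it by -1.22 (SE 0.13, adjusted p = 0.00025) in SNU-449, with a difference in effect from PLC/PRF/5 of -1.23 (SE 0.19, adjusted p = 0.00029).

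*CCR6*, the receptor of CCL20, was well above background on all 24 arrays, fell by 0.37 with TGFβ in PLC/PRF/5 (adjusted p = 0.028), and was at -0.53 to 0.38 in SNU-449. *CCR7*, which guides cells to lymph nodes, stood at -1.91, -1.65 and -2.20 in the SNU-449 controls and was not well above background with TGFβ, at least 4.26-fold lower (limma, adjusted p = 0.029). Of the 6 receptors tested in each line, 2 in SNU-449 and 1 in the other line fell with TGFβ, beside 4.7% and 7.21% of all genes. In each line 1 rose with galunisertib, beside 5.24% and 3.66% (SNU-449 first), and 1 with galunisertib added to TGFβ, beside 9.6% and 25.9%. The sheddases *ADAM10* and *ADAM17*, tested in both lines, passed in no comparison within a line, and limma gave log2 differences between -0.09 and 0.25, of which 1 had an unadjusted p below 0.05 and the methods' t-test passed 0 after adjustment. *ADAM10* was higher in PLC/PRF/5 control cells by 0.81 (adjusted p = 1.3e-06).

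**Figure D5:**
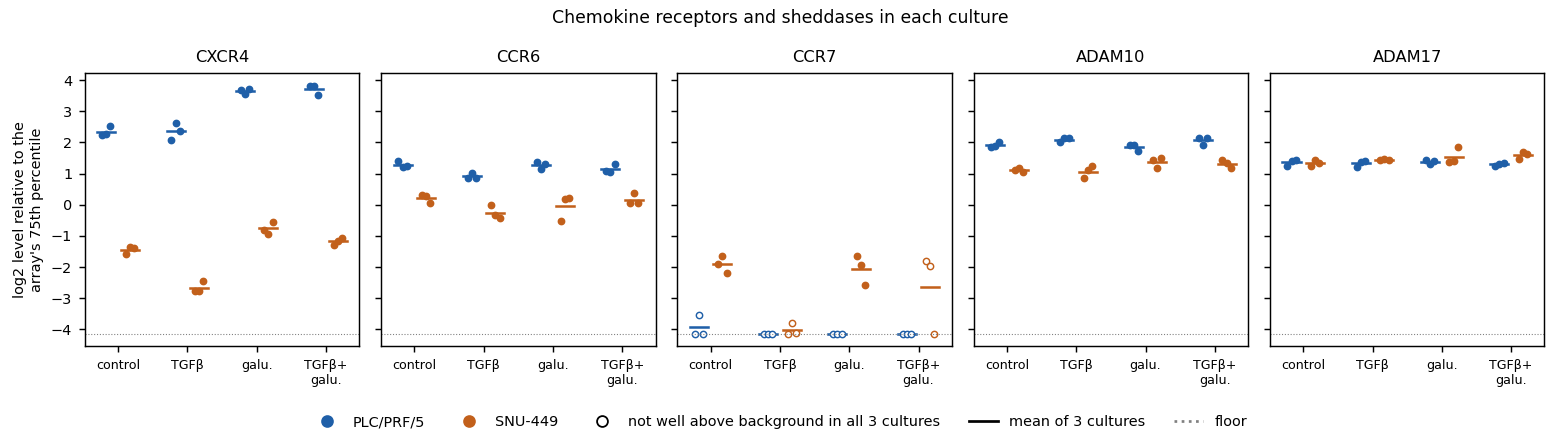
Log2 level relative to the 75th percentile of the array (y axis) of 3 chemokine receptors and 2 sheddases in the 4 treatment groups (x axis, galu. for galunisertib) of PLC/PRF/5 (blue) and SNU-449 (orange). Points are cultures, short lines means of 3, open points belong to groups not well above background in all 3 cultures, and the dotted line is the floor. *CXCR4* is higher with galunisertib in both lines, and *CCR7* drops to near the floor with TGFβ in SNU-449.

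Of 33 other chemokine ligands, 29 were on the array and 9 were tested in PLC/PRF/5. *CXCL6*, which also binds CXCR2, rose with TGFβ by 0.68 (SE 0.18, adjusted p = 0.031) and fell by 1.05 with galunisertib added to TGFβ (adjusted p = 0.0012), where it was well above background in 2 of 3 cultures. *CCL14*, which is made by liver, rose by 0.28 with TGFβ and fell by 0.52 with galunisertib added, and *CCL3* rose by 0.62 with galunisertib added. *CCL28*, a mucosal chemokine, fell by 0.49 with galunisertib alone. In PLC/PRF/5 controls *CCL14* was higher by at least 117-fold than in SNU-449 controls, where it was not well above background. In all, 2 of 9 rose with TGFβ, 1 fell with galunisertib, 1 rose and 2 fell with galunisertib added to TGFβ, and 1 rose and 1 fell with TGFβ added to galunisertib. The shares over all genes were 6.34%, 1.74%, 25.9% and 13.3%, and 3.58% and 4.93% in the same order. In SNU-449, 5 were tested and limma called 0 in any of the 4 comparisons, with 2 at an unadjusted p below 0.05 with TGFβ, 0 with galunisertib, 1 with galunisertib added to TGFβ and 1 with TGFβ added to galunisertib, and the methods' t-test passed 0 after adjustment.

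Among genes that respond to NF-κB, those that passed with TGFβ rose in PLC/PRF/5 and mostly fell in SNU-449. Of 16 tested between the control cells, 9 were higher in PLC/PRF/5 and 6 in SNU-449, where 34% and 34.6% of all genes were. In PLC/PRF/5, 4 of 15 tested rose with TGFβ, beside 6.34% of all genes, with the largest rises in *TNFAIP2* at 1.12 (SE 0.11, adjusted p = 1.0e-04) and *TNFAIP3*, which dampens NF-κB signalling, at 1.01, and *BIRC3*, an inhibitor of apoptosis, rose by 0.60. In SNU-449, 3 of 15 fell and 1 rose, beside 4.7% and 5.64% of all genes, and the falls were in *TRAF1*, a signalling adaptor, at -1.12 (SE 0.21, adjusted p = 0.0076), *BIRC3* at -0.75 and *TNFAIP2* at -0.63. The effect of TGFβ differed between the lines for *TNFAIP2* by -1.75 (SE 0.15, adjusted p = 1.3e-07), for *TRAF1* by -1.58 and for *BIRC3* by -1.35. With galunisertib alone, 4 of 15 rose in PLC/PRF/5, beside 3.66% of all genes, among them *LIF*, a cytokine, at 1.16 and *SOD2*, the mitochondrial superoxide dismutase, at 0.71, while in SNU-449 4 rose, beside 5.24%, *BIRC3* most at 0.94, and *LIF* fell by 0.69. With galunisertib added to TGFβ, 3 of 15 rose and 5 fell in PLC/PRF/5, beside 25.9% and 13.3% of all genes, where *TNFAIP2* fell by 1.28 and *SOD2* rose by 0.98, and 5 rose and 1 fell in SNU-449, beside 9.6% and 7.34%, where *BIRC3* rose by 1.55. With TGFβ added to galunisertib, 1 rose and 3 fell in PLC/PRF/5, beside 3.58% and 4.93%, and 1 rose in SNU-449, beside 0.896%.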

How the data were processed

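Total RNA of 3 independent cultures per group was labelled with 1 dye and hybridised to human arrays. The intensity values that the authors deposited are the processed signals of Agilent Feature Extraction 10.7.3.1, background-subtracted within each array and not scaled between arrays, for 62976 spots per array. The authors also deposited log2 values of 30913 probes, each centred on its median, made in GeneSpring with settings not given in the sources used here. They served as an alternative. With both sets centred by probe, they had an r of 0.999 and a slope of 1.00 over 19267 probes with the scaled and floored log2 values described next.

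Control spots and outlier spots (111 to 216 per array) were left out, spots of a probe were averaged, and values were divided by the 75th percentile of the array, set to a floor of 5.70% of it, which the original plan did not name, and put on the log2 scale. No spot was saturated. A probe was taken as well above background where at least 50% of its spots carried that flag. Of 58201 probes, 31104 were named through RefSeq accessions (GRCh38.p14, for names only, as the array was designed on hg19), 10719 through LNCipedia, 2 through the study's annotation, and 16376 had no name here. Among the 16 chemokine probes, 1 of *CX3CL1* and 1 of *CXCL16* were named from that annotation.

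Probes detected in this way throughout at least 1 group of the fit were tested, and the brightest stood for its gene. limma 3.58.1 in R 4.3.3 (lmFit and eBayes) gave differences with Benjamini-Hochberg adjustment over all genes tested, from the 12 arrays of a line or, between lines, from all 24. The study's methods name a two-sample test with a random variance model, for which a plain version ("the methods' t-test") was run as an alternative. "At least" folds set the brighter group against the weakest signal well above background on each array of the dim group, or the dim probe's own floored value where that was higher. The scripts were tested on simulated data. Alternatives covered scaling, background correction, floor, filters, probe choice, fitted arrays, the replicate block and each array left out. The planned normexp correction needed a mean signal, and the median signal of the spots was used in its place.

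Samples with the same replicate number, which also shared a slide, deviated together (every r above 0.1) in 3 comparisons. Their r was 0.18, 0.23 and 0.13 in SNU-449 with TGFβ against control, 0.20, 0.27 and 0.10 with galunisertib added to TGFβ in that line, and 0.17, 0.30 and 0.28 for TGFβ against control in PLC/PRF/5.

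All 10 chemokines and their probes are named, as are up to 3 genes of each list per comparison that passed with the largest fold, 3 TGFβ-responsive genes, and the genes most like a chemokine. *CCR6*, *CD14*, *CDH5* and the dim receptors were named after their values were seen, or for their ligands. The chemokines and the gene lists were chosen with earlier results of these data known, and some listed genes are not reported here. Figures were drawn with matplotlib 3.10.9.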

Additional observations from a re-analysis of the deposited data

Results flagged for a closer look

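The effect of galunisertib on *CXCL1* differed between the lines in a test of the difference itself, by a log2 value of 0.99 in SNU-449 minus PLC/PRF/5 (limma, adjusted p = 0.035). All 3 SNU-449 cultures with galunisertib lay above their controls, while in PLC/PRF/5 the groups overlapped. By the second *CXCL1* probe the difference was 0.75 and did not pass (adjusted p over all probes = 0.14). The call was lost in 11 of 26 alternatives, 6 of them with an array left out.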

How the results depend on the processing

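The 31 chemokine calls were recomputed under the alternatives, which gave 706 values, of which 623 stayed past the threshold in the same direction, 83 lost it and 0 reversed. This total is a poor guide to the treatment calls. It includes the differences between the control cells, several of which had to be there, and no loss fell on them. Losses for a treatment call within a line ranged from 0 of 23, as for *CXCL16*, to 13 of 23 for *CXCL12*, both with galunisertib added to TGFβ in PLC/PRF/5. Counts of chemokines that passed moved by over 1.5 times as follows, and the cause was not tested unless the setting itself tests fewer genes or arrays. With each array scaled to its median, the count was 0 in place of 2 for TGFβ in SNU-449, 1 in place of 2 for galunisertib in SNU-449, 0 in place of 1 in SNU-449 for TGFβ added to galunisertib, 1 in place of 2 for TGFβ and 0 in place of 2 for galunisertib in PLC/PRF/5, and 0 in place of 1 and 1 in place of 3 for the differences between lines in the effects of TGFβ and of galunisertib. Without scaling these counts were 1, 1, 0, 0, 0, 0 and 1 in the same order. Taking the percentile over only the probes that every array detected gave 4 for TGFβ in PLC/PRF/5 and 2 for the TGFβ difference, quantile normalization gave 4 for the former, and normexp gave 4 and 2 for these and 1 for galunisertib in SNU-449 and for the galunisertib difference. The authors' values gave 0 and 1 for the differences of TGFβ and galunisertib, as did testing only such probes, which left 4 of 10 between the control cells. No filter on dim probes gave 1 for galunisertib in SNU-449, for TGFβ in PLC/PRF/5 and for galunisertib in PLC/PRF/5, and the mean of all probes gave 3 for the TGFβ difference. With only the 6 arrays compared, the counts were 1 for galunisertib, 4 for galunisertib added to TGFβ and 0 for TGFβ added to galunisertib, all in SNU-449, and 1 for TGFβ and 0 for galunisertib in PLC/PRF/5, and all 24 arrays gave 4 in SNU-449 for galunisertib added to TGFβ. The methods' t-test gave 1, 0 and 0 in SNU-449 for TGFβ, galunisertib and TGFβ added to galunisertib, and 1 and 0 for TGFβ and galunisertib in PLC/PRF/5. Leaving out 1 array gave 1 to 2 for TGFβ and for galunisertib in SNU-449, 1 to 2 for TGFβ and 0 to 2 for galunisertib in PLC/PRF/5, and 1 to 3 for the TGFβ difference.

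With the replicate number as a block, the pairing added *CXCL1* in SNU-449 with galunisertib added to TGFβ (3 in place of 2) and changed no other chemokine call in the 3 comparisons whose samples deviated together. Elsewhere the block left 1 in place of 2 for galunisertib in PLC/PRF/5, where *CCL20* had an adjusted p of 0.051, and 5 in place of 6 for galunisertib added to TGFβ, where *CXCL12* had 0.051.

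Scaling also moved the split over all genes. The share of passing genes that were higher went from a main value of 46.8% to as much as 93.0% for TGFβ in PLC/PRF/5, from 42.1% to between 28.2% and 90.5% for TGFβ added to galunisertib there, and from 72.0% to as little as 29.3% for galunisertib in SNU-449. It went from 67.8% to between 41.6% and 71.4% for galunisertib and from 66.1% to between 39.8% and 82.7% for galunisertib added to TGFβ in PLC/PRF/5, and in SNU-449 from 54.5% to between 45.0% and 75.2% for TGFβ, from 56.7% to between 30.2% and 62.8% for galunisertib added to TGFβ, and from 48.3% to between 47.2% and 79.6% for TGFβ added to galunisertib. Between the lines it went from 49.5% to between 33.1% and 56.1% for the control cells, from 49.8% to between 36.1% and 54.8% for the TGFβ difference and from 58.5% to between 32.4% and 63.1% for the galunisertib difference. The median of all genes moved by -0.34 to 0.17 with median scaling, -0.18 to 0.25 without scaling and -0.17 to 0.13 with the percentile over probes well above background. Below the floor, levels have no order, which limits *CXCL3*, *CX3CL1* and the SNU-449 values of *CXCL12*.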
